A study of Mus musculus with 12 samples.

Results

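Transcript levels of 33 genes of the p53 pathway were measured in mouse embryonic stem cells that lacked DHX36, FANCJ or both of these G-quadruplex helicases, and in wild-type cells. The set held Trp53, its regulators and its direct targets, taken by gene name from the deposited count table. All 33 were among the 32285 genes of that table, and 32 were among the 12765 genes that passed a filter on low counts and were tested. The gene left out by the filter was Fas, a death receptor, with 0 to 12 counts per library. The other member near the filter was Gdf15, a secreted stress factor with 2 to 23 counts per library, and the 31 remaining members were above the filter's limit in every library.

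The groups were a DHX36 knockout, a FANCJ knockout, whose mouse gene is Brip1, a DHX36/FANCJ double knockout and wild type, with 3 libraries each. All cells were of the IB10 line, which derives from 129/Ola mice, and grew untreated on gelatin in conditioned medium with serum and leukaemia inhibitory factor. RNA was sequenced by a method like CEL-Seq2, which reads the polyadenylated ends of transcripts. The labels name neither the alleles nor the number of clones behind a knockout, and they do not say whether a genotype's libraries stem from separate cultures. The p-values below thus reflect only the spread among these samples, and that spread may be technical. An effect of the knockout cannot be told apart from one of the clone, and loss of a gene names below only the genotypes compared. The embryonic stem cell markers Pou5f1, Nanog and Sox2 were present in every genotype, with mean Pou5f1 levels of 118 CPM (the count scaled to the same total in every library) in the DHX36 knockout, 81.0 CPM in the FANCJ knockout, 109 CPM in the double knockout and 99.6 CPM in wild type. Total counts per library were between 4284785 and 14721931. All 3 DHX36 knockout libraries and all 3 double knockout libraries were deeper than the 3 of wild type.

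The transcription factor p53 is kept low in unstressed cells by Mdm2, a ubiquitin ligase that marks it for degradation and is itself a p53 target, and by the Mdm2 relative Mdm4. Damage to DNA stabilises p53, which then raises genes that hold the cell cycle, repair DNA or trigger cell death. Embryonic stem cells hold much p53 protein and mRNA, and p53 in them also acts on self-renewal and differentiation. FANCJ is a helicase of the Fanconi anaemia pathway of crosslink repair, and DHX36 resolves G-quadruplexes, folds of guanine-rich DNA or RNA. The protein, its modification and its binding to DNA were not measured here, so every value below is a transcript level or a difference between levels.

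The p53 protein binds pairs of a consensus decamer that reads 3 purines, C, A or T, A or T, G and 3 pyrimidines. Promoter windows of 300 bases, from 250 before to 50 after a start site, were taken from RefSeq on GRCm38.p6 and matched 25 of the 33 members. Ddb2, Pmaip1, Rrm2b, Tnfrsf10b, Perp, Zmat3, Xpc and Trp53inp1 were not among them. On either strand, an exact decamer lay in a window of 11 of these 25 genes (44.0%), against 9.6% of all 27025 genes with a window. Counted by window, it lay in 12 of the members' 34 (35.3%), against 8.4% of all 32851 windows. The set was defined by p53 and its direct targets, so these shares are not independent of that choice. The 11 were Bax, Aen, Ei24, Sesn1, Mdm2, Ccng1, Trp53, Ppm1d, Polk, Gtse1 and Cdkn1a. The sequences below show the decamer, in capitals, with 10 bases on each side, on the gene's strand, for the 9 of these genes that were called in at least 1 comparison below, which leaves out Bax and Ppm1d. They lie at chr11:69580284-69580293 (plus strand) for Trp53, chr10:117710935-117710944 (minus strand) for Mdm2, chr13:96519409-96519418 (minus strand) for Polk, chr11:40755462-40755471 (minus strand) for Ccng1 and chr9:36797335-36797344 (minus strand) for Ei24. Those of Sesn1 at chr10:41887266-41887275, Aen at chr7:78895937-78895946 and Gtse1 at chr15:85859955-85859964 are on the plus strand. Cdkn1a held 2 exact decamers that do not abut, at chr17:29090906-29090915 and chr17:29090928-29090937 (plus strand). The 10 bases right after the second match the decamer with 1 mismatch, which the exact search leaves out. The 10 bases right before the Ccng1 decamer also match with 1 mismatch, and in Gtse1 such a match follows after 1 base. The windows were not searched for pairs, so a decamer shown here is not by itself a p53 binding site. The Cdkn1a window at chr17:29093519-29093818 held 0 exact decamers. Here and for the G-quadruplex motifs below, calls served only to choose the sequences shown. The relation of motif to call was not tested.
Trp53: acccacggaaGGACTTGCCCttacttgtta
Mdm2: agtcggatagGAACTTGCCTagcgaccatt
Polk: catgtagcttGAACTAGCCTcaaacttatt
Ccng1: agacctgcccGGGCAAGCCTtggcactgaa
Ei24: cgtgcggcccGGGCATGCCCagtgtgggcg
Sesn1: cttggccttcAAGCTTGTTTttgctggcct
Aen: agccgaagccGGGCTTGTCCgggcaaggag
Gtse1: gagcaagttgGGGCTTGCCTctgacttgcc
Cdkn1a, first: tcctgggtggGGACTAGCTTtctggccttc
Cdkn1a, second: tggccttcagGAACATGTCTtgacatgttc

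Since both helicases act on G-quadruplexes, the same windows were searched, on either strand, for 4 stretches of 3 or more G with spacers of 1 to 7 bases. Such a motif lay in a window of 8 of the 25 members (32.0%), against 20.4% of all genes with a window. Counted by window, it lay in 9 of the members' 34 (26.5%), against 18.6% of all 32851 windows. The 8 were Btg2, Phlda3, Bbc3, Ei24, Sesn1, Ppm1d, Polk and Eda2r. In Ei24 the motif ran over the decamer shown above. In Polk and Sesn1 the motif and the decamer lay in different windows, around separate start sites. The motifs of Btg2 at chr1:134079249-134079270 (minus strand), Polk at chr13:96542667-96542686 (minus strand), Eda2r at chrX:97377388-97377406 (minus strand), Phlda3 at chr1:135766018-135766046 (plus strand) and Sesn1 at chr10:41810450-41810474 (plus strand) follow in capitals on the gene's strand, since these genes, like Ei24, were called in at least 1 comparison below. In Btg2 the G runs are on the gene's strand, and in the other genes shown they are on the opposite strand and read as C runs.
Btg2: tggcGGGCGGGGCGGAGAGGGGCGGGcgca
Polk: ctccaCCCCGCCCCGGGCCCCTCCCggcgg
Eda2r: ttgggCCCTTCCCTCCCTAGACCCagctt
Phlda3: CCCCACTGCAGCCCCGCCCCCCGGGGCCC
Sesn1: taCCCCGCCAGCACCCGCCCGCTGCCCtg

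The targeted genes were low in the knockouts that carry their names. Dhx36 had 10.9, 8.84 and 11.7 CPM in the DHX36 knockout and 12.2, 15.1 and 14.5 in the double knockout, against 54.7, 57.6 and 50.1 in wild type. Brip1 had 0.129, 0.266 and 0.619 CPM in the FANCJ knockout, 0.744, 0.319 and 0.178 CPM in the double knockout, against 6.86, 6.72 and 7.03 in wild type. In both cases the groups did not overlap. A gene was called higher or lower at an adjusted p under 0.05 in edgeR's quasi-likelihood test, with Benjamini-Hochberg adjustment over all 12765 genes. Fold changes are given as log2 of the first-named genotype over the second, with the standard error (SE).

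**Figure D1:**
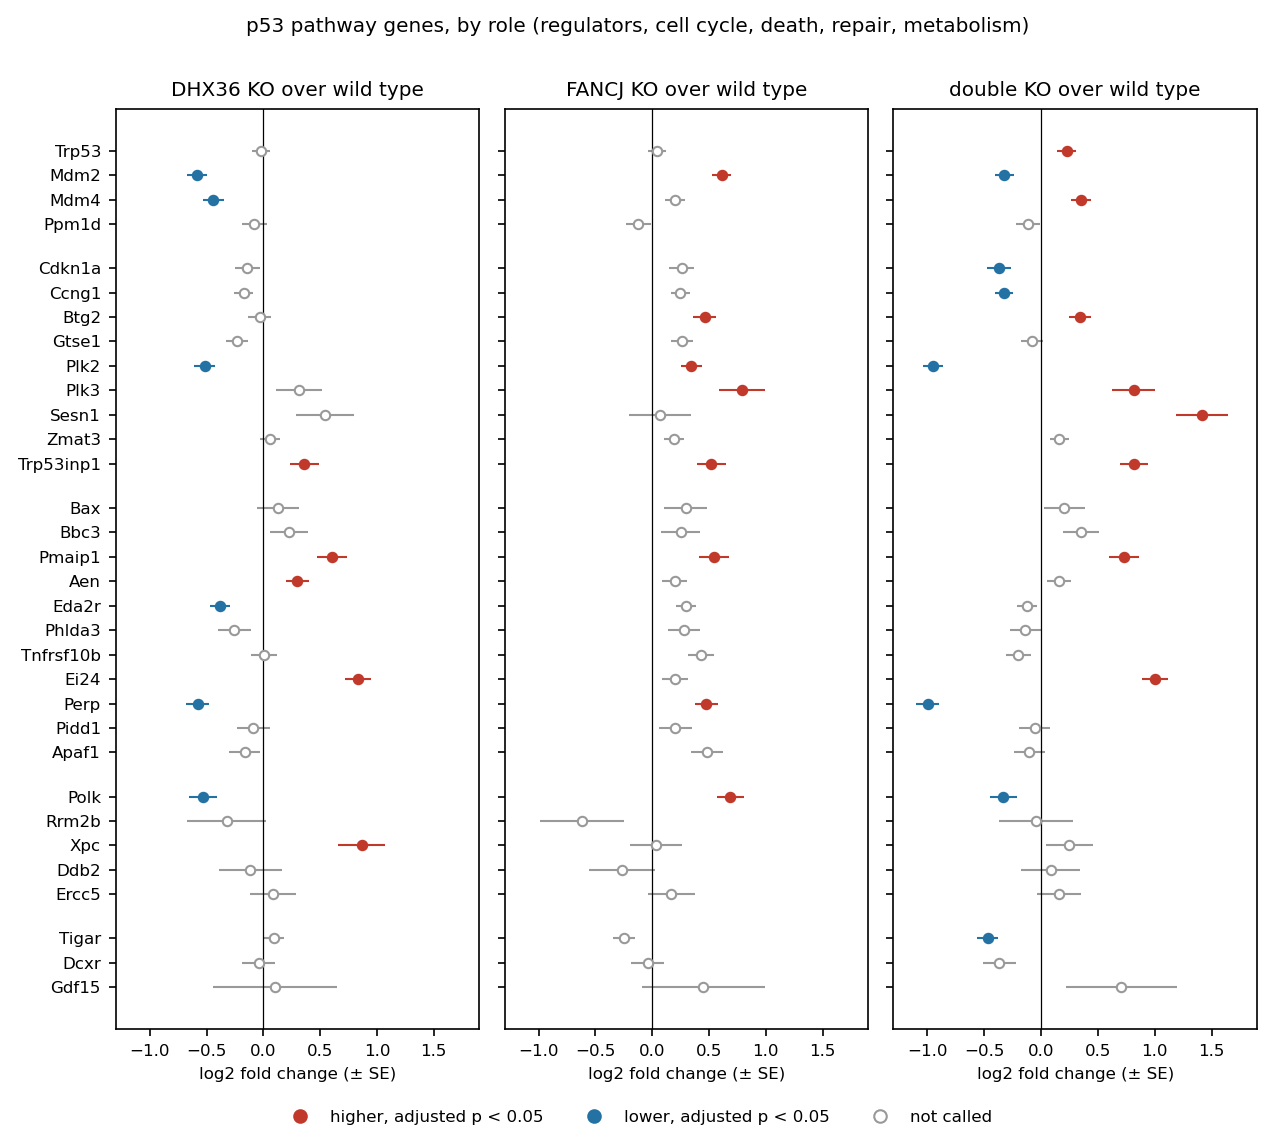
Log2 fold change with its SE for the 32 tested p53 pathway genes, by role, in the DHX36 knockout, the FANCJ knockout and the double knockout over wild type (red, called higher; blue, called lower; grey, not called). In the FANCJ knockout 27 of the 32 points lie above 0 and the 8 called ones are all higher, while in the other comparisons called points lie on both sides.

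Several of the p53 pathway genes of this set were higher in the FANCJ knockout than in wild type. The members were chosen with earlier results of these data known, so their shares cannot be read as an unbiased enrichment. In the FANCJ knockout against wild type, 8 of the 32 tested members were called higher (25%) and 0 lower, against 1.45% and 0.619% of all tested genes. The 8 were Mdm2, Polk, Perp, Btg2, Pmaip1, Trp53inp1, Plk3 and Plk2. At an unadjusted p under 0.05 edgeR had 16 members higher and 1, Tigar, lower, where 15% of all tested genes passed in either direction, and DESeq2 called 9 higher and 0 lower. The fold change was positive for 27 of 32 members with a median of 0.26, against a median of -0.00 over all tested genes. In 18 members every FANCJ knockout library was above every wild-type library and in 0 members below, where 10% and 8.7% of all tested genes were so separated. In bulk samples, more RNA per cell and more cells of a kind cannot be told apart.

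Among the regulators, Mdm2 had 225, 247 and 235 CPM in the FANCJ knockout, against 145, 152 and 167 in wild type. All FANCJ knockout libraries were above all wild-type ones, and the log2 fold change was 0.61 (SE 0.08, adjusted p = 0.000236). Trp53 itself had 1034, 939 and 944 CPM in the FANCJ knockout, against 929, 914 and 987 in wild type. These groups overlapped, with a log2 fold change of 0.04 (SE 0.08, adjusted p = 0.861). Mdm4 had 78.9, 70.6 and 80.2 CPM in the FANCJ knockout, against 67.3, 68.2 and 64.4 in wild type, which did not overlap but did not pass the test (log2 fold change 0.20, adjusted p = 0.295). Ppm1d, a phosphatase that reverses damage signalling to p53, had a log2 fold change of -0.12 (adjusted p = 0.673).

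Of the repair genes, Polk, a DNA polymerase that copies past lesions, had 41.5, 44.7 and 40.9 CPM in the FANCJ knockout, against 25.2, 26.5 and 27.2 in wild type. The groups were far apart, at a log2 fold change of 0.69 (SE 0.12, adjusted p = 0.00258). Mdm2 and Polk were called in all 12 alternative analyses, with adjusted p of at most 0.00333 for Mdm2 and 0.0347 for Polk. Xpc, Ddb2 and Ercc5 of nucleotide excision repair and Rrm2b, a subunit of ribonucleotide reductase, had log2 fold changes of 0.03, -0.27, 0.17 and -0.62, each with an adjusted p of 0.467 or more. Ddb2 shares 652 exonic bases with Acp2 on the other strand, which had 943 counts in all libraries together against 382 for Ddb2. The sources used here do not say how the counting treated strand, and reads of this pair cannot be told apart.

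Of the 9 cell cycle and growth genes 4 were called, all higher, against 1.45% of all tested genes. The fold change was positive in all 9, against 6319 of all 12765 tested genes. Btg2, an antiproliferative cofactor of mRNA deadenylation, had 68.6, 64.4 and 59.4 CPM in the FANCJ knockout, against 43.2, 49.9 and 46.8 in wild type (log2 fold change 0.46, SE 0.10, adjusted p = 0.0161). Plk2, a polo-like kinase, had 102, 98.7 and 98 CPM in the FANCJ knockout, against 80.4, 75 and 80.6 in wild type (log2 fold change 0.34, SE 0.09, adjusted p = 0.049). Its relative Plk3 had 13.8, 11.8 and 13.8 CPM in the FANCJ knockout, against 9.08, 8.84 and 4.45 in wild type (log2 fold change 0.79, SE 0.20, adjusted p = 0.0416). In each of these 3 genes the groups did not overlap, and for Plk3 the third wild-type library was well under the other 2. Trp53inp1, which binds p53 and promotes its phosphorylation, had 32.2, 43.0 and 43.3 CPM in the FANCJ knockout, against 28.1, 23.7 and 30.9 in wild type (log2 fold change 0.52, SE 0.13, adjusted p = 0.0371). Its first FANCJ knockout library was close to the highest wild-type one. Cdkn1a, which encodes the cyclin-dependent kinase inhibitor p21, had 179, 164 and 211 CPM in the FANCJ knockout, against 168, 140 and 154 in wild type. The groups overlapped and the difference did not pass the test (log2 fold change 0.26, SE 0.11, adjusted p = 0.256). Ccng1, which encodes cyclin G1, had 414, 474 and 436 CPM in the FANCJ knockout, against 371, 396 and 348 in wild type, which did not overlap but did not pass the test (log2 fold change 0.25, SE 0.08, adjusted p = 0.131). Gtse1, Zmat3 and Sesn1 had log2 fold changes of 0.26, 0.19 and 0.07 with adjusted p of 0.189 or more.

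Of the 11 tested cell death genes 2 were called, both higher, against 1.45% of all tested genes. The fold change was positive in all 11, against 6319 of all 12765 tested genes. Perp, which encodes a membrane protein of desmosomes and an apoptosis effector, had 82.0, 83.8 and 81.3 CPM in the FANCJ knockout, against 53.1, 60.1 and 64.6 in wild type (log2 fold change 0.47, SE 0.10, adjusted p = 0.0147). Pmaip1, which encodes the BH3-only protein Noxa, had 28.1, 24.2 and 23.7 CPM in the FANCJ knockout, against 16.6, 19.1 and 16.4 in wild type (log2 fold change 0.54, SE 0.14, adjusted p = 0.0366). Neither pair of groups overlapped. Just above the threshold were the death receptor gene Tnfrsf10b (log2 fold change 0.43, adjusted p = 0.0521), Apaf1 of the apoptosome (0.48, adjusted p = 0.0785) and the receptor gene Eda2r (0.29, adjusted p = 0.0945), each with no overlap between the groups. Bax, Bbc3, Aen, Phlda3, Ei24 and Pidd1 had log2 fold changes of 0.20 to 0.29 with adjusted p of 0.364 or more. The 3 metabolic and secreted-factor genes, Tigar, Dcxr and Gdf15, had log2 fold changes of -0.25, -0.04 and 0.45, with adjusted p of 0.208 or more.

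The number of members called higher in the FANCJ knockout depended on single libraries. It was 2 without wild-type library 1, 4 without wild-type library 2, 6 without wild-type library 3, 3 without FANCJ knockout library 1, 5 without library 2 and 4 without library 3. It was 2 when all libraries were thinned to equal depth and 4 when these 2 genotypes were fitted alone. Of the 12 alternatives, Btg2 and Perp lost their call in 3 each, at equal depth and without wild-type library 1 or FANCJ knockout library 1, with adjusted p of up to 0.085 and 0.191. Trp53inp1 lost it in 6, among them those without wild-type library 1 or 2 or FANCJ knockout library 2 or 3 (adjusted p of up to 0.181). Pmaip1 lost it in 8, Plk3 in 9 and Plk2 in 10, and for these 3 genes each of the 6 libraries was enough, with adjusted p of up to 0.342, 0.26 and 0.197. The number of members with a positive fold change stayed between 24 of 31 and 28 of 33, and the median between 0.23 and 0.30, in the 16 alternatives that gave these values. Markers of other cells moved in the same comparison. Of 15 tested primitive endoderm markers 9 were called higher, and their summed level was 730 to 759 CPM in the FANCJ knockout, against 489 to 612 CPM in wild type, with none of the 17 listed at 0 throughout a group. The largest change among them was that of Srgn, which encodes a proteoglycan (log2 fold change 3.41, adjusted p = 4.72e-08). Of 10 tested fibroblast markers 5 had a positive and 5 a negative fold change, with a median of 0.10. The contractile genes Acta2 and Tagln were called higher, with means of 524 and 400 CPM in the FANCJ knockout, against 363 and 308 CPM in wild type, and they made up most of the list's summed level, which was 1076 to 1112 CPM in the FANCJ knockout, against 759 to 925 CPM in wild type. Col1a1 and Vim averaged 66.4 and 72.1 CPM in the FANCJ knockout, against 70.7 and 77.1 CPM in wild type. The fibroblast genes Lum and Dcn averaged 0.0859 and 0.0886 CPM in the FANCJ knockout, against 0.0589 and 0.137 CPM in wild type. Mitochondrial transcripts took 11.21% to 11.51% of counts in FANCJ knockout libraries, 11.01% to 12.26% in DHX36 knockout libraries and 11.94% to 13.22% in double knockout libraries, against 10.01% to 10.59% in wild-type libraries. The part of these markers and of the mitochondrial share in the result was not tested.

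**Figure D2:**
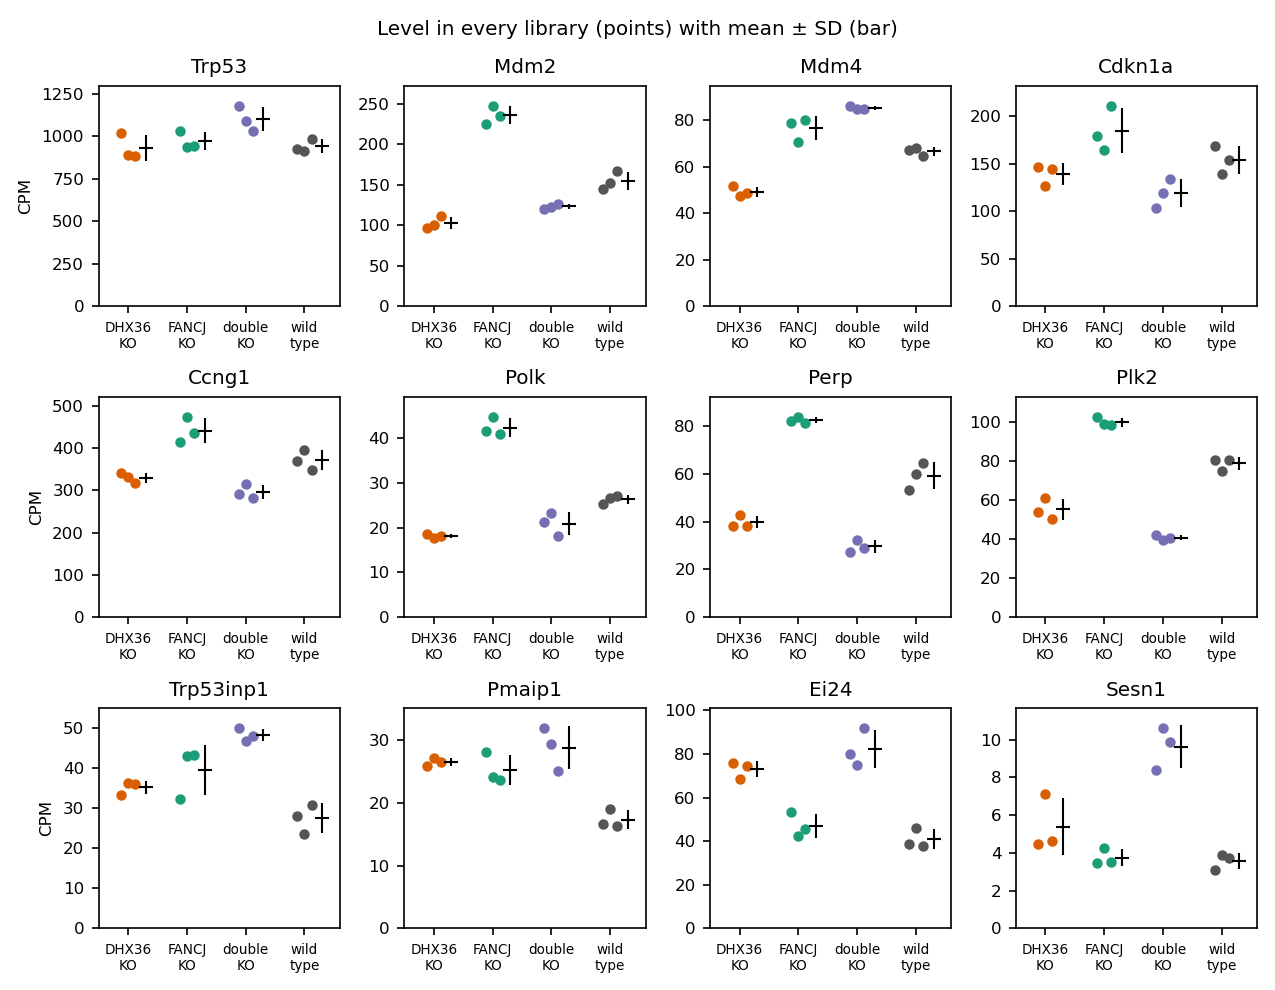
CPM in every library (points) with mean and SD (bar) for 12 p53 pathway genes in the DHX36 knockout, the FANCJ knockout, the double knockout and wild type. Mdm2, Polk, Perp and Plk2 are highest in the FANCJ knockout and below wild type in both genotypes without DHX36, whereas Ei24 is high in both genotypes without DHX36 and Sesn1 is highest in the double knockout.

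Members differed in both directions between the DHX36 knockout and wild type. In the DHX36 knockout against wild type, 5 of 32 members were called higher (15.6%) and 6 lower (18.8%), against 12.8% and 11.6% of all tested genes, so the share higher was near the background. The groups did not overlap in 6 members that were higher and in 8 that were lower, where 19.6% and 18.1% of all tested genes were so separated. The median fold change was -0.04, against 0.01 over all tested genes. The 5 higher members were Ei24, Xpc, Pmaip1, Trp53inp1 and Aen, and the 6 lower ones were Mdm2, Perp, Polk, Plk2, Mdm4 and Eda2r. The comparisons with wild type share the 3 wild-type libraries.

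Both inhibitors of p53 were lower in the DHX36 knockout. Mdm2 had 96.8, 99.8 and 112 CPM in the DHX36 knockout, against 145, 152 and 167 in wild type (log2 fold change -0.58, SE 0.09, adjusted p = 3.04e-05). Mdm4 had 51.7, 47.2 and 48.5 CPM in the DHX36 knockout, against 67.3, 68.2 and 64.4 in wild type (log2 fold change -0.44, SE 0.09, adjusted p = 0.00101). Neither pair of groups overlapped. Trp53 had 1018, 891 and 883 CPM in the DHX36 knockout, and its groups overlapped (log2 fold change -0.02, adjusted p = 0.895). Perp had 38.4, 42.8 and 38.4 CPM in the DHX36 knockout (log2 fold change -0.58, SE 0.10, adjusted p = 0.000268), and Plk2 had 54.0, 60.9 and 50.3 (log2 fold change -0.52, SE 0.09, adjusted p = 0.000253). Polk had 18.6, 17.7 and 18.2 CPM (log2 fold change -0.53, SE 0.12, adjusted p = 0.00283) and Eda2r 72.3, 81.3 and 66.7, against 95, 97.9 and 92.3 in wild type (log2 fold change -0.38, SE 0.09, adjusted p = 0.0034). For each of these genes all DHX36 knockout libraries were below all wild-type ones. All 6 lower calls held in every one of the 12 alternatives.

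The largest rises in the DHX36 knockout were those of Xpc and Ei24. Ei24, which encodes a membrane protein of the endoplasmic reticulum that restrains growth, had 75.8, 68.7 and 74.5 CPM in the DHX36 knockout, against 38.5, 46.1 and 37.9 in wild type (log2 fold change 0.83, SE 0.11, adjusted p = 1.3e-05). Xpc, which recognises distorted DNA in nucleotide excision repair, had 13.7, 10.7 and 12.3 CPM in the DHX36 knockout, against 9.74, 5.13 and 5.62 in wild type (log2 fold change 0.86, SE 0.21, adjusted p = 0.00376). The groups did not overlap, though the first wild-type library of Xpc came close, and its call was lost at equal depth (adjusted p = 0.141). Pmaip1 had 25.9, 27.2 and 26.6 CPM in the DHX36 knockout, against 16.6, 19.1 and 16.4 in wild type (log2 fold change 0.60, SE 0.13, adjusted p = 0.00183). Trp53inp1 had 33.4, 36.3 and 36 CPM (log2 fold change 0.36, SE 0.13, adjusted p = 0.0451), and Aen, a nuclease that cuts DNA in apoptosis, had 53.5, 49.7 and 53.3, against 37.2, 45.6 and 44.3 in wild type (log2 fold change 0.30, SE 0.10, adjusted p = 0.0387). Their groups did not overlap, and Ei24 and Pmaip1 were called in all 12 alternatives, whereas Trp53inp1 lost its call in 8, among them those without wild-type library 1 or 2 or any DHX36 knockout library (adjusted p of up to 0.236). Aen lost it in 7, among them those without wild-type library 1 or 3 or DHX36 knockout library 1 or 3 (adjusted p of up to 0.199). The count of 5 higher members was 3 without wild-type library 1, 3 without DHX36 knockout library 1, 3 without library 3, and 2 at equal depth. The part of the DHX36 knockout's greater depth in the result was not tested beyond the thinning to equal depth. Cdkn1a had 147, 126 and 144 CPM in the DHX36 knockout and its groups overlapped (log2 fold change -0.14, adjusted p = 0.371). The 21 members not called in this comparison had log2 fold changes between -0.32 for Rrm2b and 0.54 for Sesn1.

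In the double knockout against wild type, 8 of 32 members were called higher (25%) and 7 lower (21.9%), against 16.6% and 17.3% of all tested genes. The median fold change was 0.02, against 0.01 over all tested genes. Groups did not overlap in 10 members that were higher and in 9 that were lower, where 23.1% and 22.1% of all tested genes were so separated. Sesn1, which encodes an inhibitor of mTORC1 signalling, had the largest rise, with 8.39, 10.6 and 9.88 CPM in the double knockout, against 3.10, 3.89 and 3.75 in wild type (log2 fold change 1.41, SE 0.23, adjusted p = 5.71e-05). Its counts in wild type were few, at 14, 22 and 16. Ei24 had 79.9, 75 and 91.9 CPM in the double knockout (log2 fold change 1.00, SE 0.11, adjusted p = 4.74e-07). Both genes were clear of wild type in every library.

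Further rises in the double knockout were those of Trp53inp1, with 50.0, 46.9 and 48.0 CPM (log2 fold change 0.82, SE 0.12, adjusted p = 2.52e-05), and Pmaip1, with 32.0, 29.4 and 25.2 (log2 fold change 0.73, SE 0.13, adjusted p = 0.000138). Plk3 had 13.0, 12.3 and 14.8 CPM (log2 fold change 0.82, SE 0.19, adjusted p = 0.00218), and Btg2 had 58.2, 61.6 and 57.9 (log2 fold change 0.34, SE 0.10, adjusted p = 0.00895). All 4 were above wild type in every library, and the call of Btg2 was lost at equal depth (adjusted p = 0.499). Mdm4 had 86.1, 84.8 and 84.7 CPM in the double knockout, against 67.3, 68.2 and 64.4 in wild type (log2 fold change 0.35, SE 0.09, adjusted p = 0.00305). Trp53 had 1179, 1093 and 1034 CPM in the double knockout, against 929, 914 and 987 in wild type (log2 fold change 0.22, SE 0.08, adjusted p = 0.0364). The Trp53 groups did not overlap, and the call was lost without wild-type library 1, wild-type library 2, double knockout library 1 or double knockout library 2, with adjusted p of up to 0.159.

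The falls in the double knockout were led by Perp and Plk2. Perp had 27.3, 32.5 and 29.1 CPM in the double knockout, against 53.1, 60.1 and 64.6 in wild type (log2 fold change -1, SE 0.10, adjusted p = 1.44e-07). Plk2 had 41.9, 39.5 and 40.4 CPM in the double knockout, against 80.4, 75 and 80.6 in wild type (log2 fold change -0.95, SE 0.09, adjusted p = 5.83e-08). Both were far below wild type in every library. Tigar, which encodes a phosphatase that lowers glycolytic flux, had 132, 123 and 123 CPM in the double knockout, against 180, 154 and 189 in wild type (log2 fold change -0.47, SE 0.09, adjusted p = 0.000474). Cdkn1a had 104, 119 and 134 CPM in the double knockout, against 168, 140 and 154 in wild type (log2 fold change -0.37, SE 0.11, adjusted p = 0.0111), and Ccng1 had 292, 315 and 282, against 371, 396 and 348 (log2 fold change -0.33, SE 0.08, adjusted p = 0.0035). No group pair overlapped, and the Cdkn1a call was lost without wild-type library 1 or double knockout library 1, with adjusted p of up to 0.0758. Mdm2 had 121, 123 and 126 CPM in the double knockout (log2 fold change -0.32, SE 0.08, adjusted p = 0.00505), and Polk had 21.2, 23.3 and 18.2 (log2 fold change -0.33, SE 0.12, adjusted p = 0.0337). The Polk call was lost in 7 of the 12 alternatives, among them those without wild-type library 2, wild-type library 3, double knockout library 1 or double knockout library 3, with adjusted p of up to 0.144. The 17 members not called had log2 fold changes between -0.37 for Dcxr (adjusted p = 0.0509) and 0.71 for Gdf15. In the double knockout 8 of 10 tested fibroblast markers were called lower, with a summed level of 185 to 198 CPM against 759 to 925 CPM in wild type, and 6 of 15 primitive endoderm markers were called higher and 3 lower. The part of these markers, and of the greater depth, in the result was not tested beyond the thinning to equal depth.

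**Figure D3:**
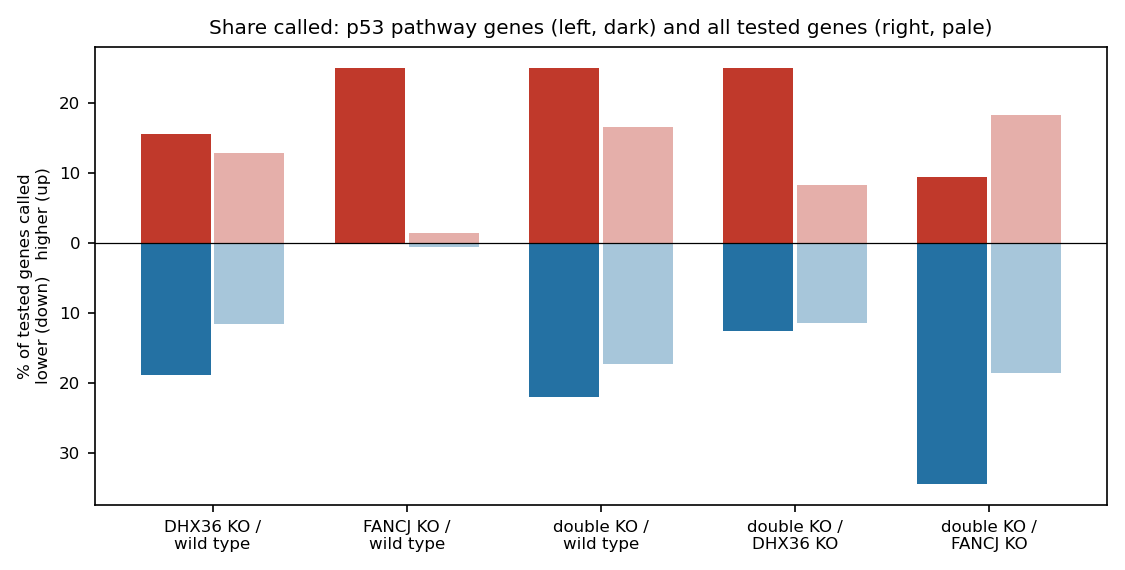
Percent of tested genes called higher (up, red) and lower (down, blue) for the 32 p53 pathway genes (left, dark) and all 12765 tested genes (right, pale) in 5 comparisons. The widest gap between the bars is in the FANCJ knockout over wild type, with 25% of members higher against 1.45% of all genes. In the double knockout against the FANCJ knockout 34.4% of members are lower, against 18.5% of all genes. Both comparisons hold the same FANCJ knockout libraries, and the members were chosen with earlier results of these data known.

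Members were also ordered by mean level over the 4 genotypes, in the same libraries as above. Of the 32 tested members 15 were highest in the FANCJ knockout (46.9%), against 23.8% of all tested genes. In the double knockout 11 were highest, against 29.5%. In 12 members the lowest mean was in wild type (37.5%), against 22.6% of all tested genes. In 6 members all 3 steps between neighbouring genotypes were free of overlap between libraries (18.8%), against 2.01% of all tested genes. For Mdm2 and Eda2r the order, high to low, was FANCJ knockout, wild type, double knockout, DHX36 knockout. For Perp, Plk2 and Ccng1 it was FANCJ knockout, wild type, DHX36 knockout, double knockout. For Mdm4 it was double knockout, FANCJ knockout, wild type, DHX36 knockout. In Polk the DHX36 knockout and the double knockout overlapped, in Sesn1 the FANCJ knockout and wild type did, and in Pmaip1 the 3 knockout genotypes overlapped with their neighbours and all lay above wild type. Summed over the 32 members other than Trp53, DHX36 knockout libraries had 1681 to 1751 CPM, FANCJ knockout libraries 2237 to 2268 CPM, double knockout libraries 1693 to 1719 CPM and wild-type libraries 1833 to 1910 CPM, with no overlap between the FANCJ knockout or wild type and any other genotype. The median coefficient of variation of a member between libraries was 8.10% among DHX36 knockout libraries, 9.07% among FANCJ knockout libraries, 8.70% among double knockout libraries and 9.85% among wild-type libraries.

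Loss of FANCJ was also measured in cells without DHX36, by the double knockout against the DHX36 knockout. There 8 of 32 members were called higher (25%) and 4 lower (12.5%), against 8.28% and 11.4% of all tested genes. The groups did not overlap in 8 members that were higher and in 7 that were lower, where 17.3% and 19.6% of all tested genes were so separated. The 8 higher members were Mdm4, Sesn1, Trp53inp1, Btg2, Plk3, Mdm2, Eda2r and Trp53, with log2 fold changes of 0.79, 0.87, 0.46, 0.37, 0.50, 0.26, 0.25 and 0.24 and adjusted p between 8.46e-07 and 0.0426. The 4 lower members were Tigar, Plk2, Perp and Xpc, with log2 fold changes of -0.56, -0.43, -0.42 and -0.61 and adjusted p between 0.00014 and 0.0149. The number higher was 4 or 5 without DHX36 knockout library 1, 2 or 3 or double knockout library 1 or 2, and it was 2 at equal depth. Mdm4 alone among the 8 had a call in all 12 alternatives. Sesn1, Trp53inp1 and Btg2 lost theirs at equal depth alone (adjusted p of 0.141, 0.35 and 0.653). Mdm2 lost its call at equal depth and without DHX36 knockout library 1 or 2 or any double knockout library, with adjusted p of up to 0.13. Eda2r lost it in 7 alternatives, among them those without DHX36 knockout library 1 or 3 or double knockout library 1 or 2, with adjusted p of up to 0.204. Plk3 lost it in 9, and each of the 6 libraries compared was enough, with adjusted p of up to 0.122. Trp53 lost it without DHX36 knockout library 2 or 3 or double knockout library 1 or 2, with adjusted p of up to 0.166. For Xpc the lower call was lost without DHX36 knockout library 1 and at equal depth (adjusted p of up to 0.448). In the same comparison 7 of 16 embryonic stem cell markers were called higher and 1 lower, and 8 of 10 fibroblast markers were called lower, and their part in it was not tested.

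The 2 measurements of FANCJ loss share no library. The sign was the same in 23 of the 32 members and positive in both in 20, while the Pearson correlation of the fold changes over the 32 genes was 0.19. Genes are not independent replicates, no test was made of that value, and no value over all tested genes is given beside it. The difference between the 2 measurements was tested as an interaction, which takes the FANCJ effect in cells without DHX36 and subtracts the effect in cells with it. It was called for 6 members, 1 higher (3.12%) and 5 lower (15.6%), against 2.73% and 6.06% of all tested genes, or 8.79% in either direction. The median interaction was -0.17 over the 32 members and 0.00 over all tested genes, and it was negative in 25 of the 32. The interaction subtracts the FANCJ knockout's fold change over wild type, from the same libraries as above, which was positive in 27 of the 32. The interaction's lean to negative values is thus not independent of that result.

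Perp differed most. FANCJ loss had a log2 fold change of -0.42 in cells without DHX36 and of 0.47 in cells with it, and the interaction was -0.90 (SE 0.14, adjusted p = 0.000259). Plk2 had -0.43 without DHX36 and 0.34 with it (interaction -0.78, SE 0.13, adjusted p = 0.000382), and Tnfrsf10b had -0.20 and 0.43 (interaction -0.63, SE 0.16, adjusted p = 0.0126). Cdkn1a had -0.23 and 0.26 (interaction -0.49, SE 0.15, adjusted p = 0.0487), and Ccng1 had -0.15 and 0.25 (interaction -0.40, SE 0.11, adjusted p = 0.0309). In these 5 genes the estimated effect was positive with DHX36 and negative without it. Both effects were called in Perp and Plk2, and neither was called in Tnfrsf10b, Cdkn1a and Ccng1. In the last 3 genes the adjusted p was 0.207, 0.143 and 0.199 without DHX36 and 0.0521, 0.256 and 0.131 with it. Mdm4 went the other way, at 0.79 without DHX36 and 0.20 with it (interaction 0.59, SE 0.12, adjusted p = 0.00296). The effects on Mdm2 were 0.26 and 0.61 and those on Polk 0.20 and 0.69, with interactions of -0.35 (adjusted p = 0.0719) and -0.49 (adjusted p = 0.0699) that did not pass the test. The interactions of Perp, Plk2 and Mdm4 were called in all 17 alternatives and that of Tnfrsf10b in 16, the exception being equal depth (adjusted p = 0.0506). Ccng1 lost its call in 8, at equal depth and without wild-type library 1 or 3, DHX36 knockout library 1 or 2, FANCJ knockout library 2 or double knockout library 1 or 3 (adjusted p of up to 0.103). Cdkn1a lost it in 9, at equal depth and without wild-type library 2 or 3, DHX36 knockout library 1 or 3, FANCJ knockout library 1 or 3 or double knockout library 1 or 2 (adjusted p of up to 0.137). In the same interaction 6 of 16 embryonic stem cell markers were called higher and 1 lower, with a median of 0.37, and 6 of 10 tested fibroblast markers and 5 of 15 primitive endoderm markers were called lower, and their part in it was not tested.

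**Figure D4:**
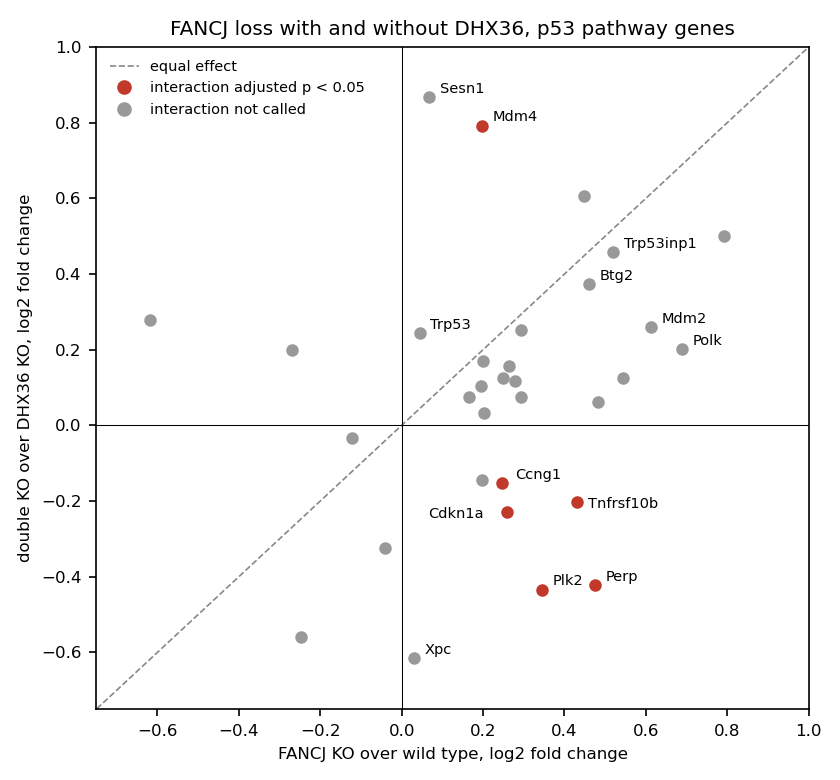
Log2 fold change of FANCJ loss in cells without DHX36 (vertical, double knockout over DHX36 knockout) against that in cells with DHX36 (horizontal, FANCJ knockout over wild type) for the 32 tested p53 pathway genes; red points have an interaction at adjusted p under 0.05. Of the 6 red points 5 lie to the lower right, positive with DHX36 and negative without it. For Perp and Plk2 both of these effects were called, and for Tnfrsf10b, Cdkn1a and Ccng1 neither was. Mdm4 lies above the dashed line of equal effect.

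Loss of DHX36 in cells without FANCJ was measured by the double knockout against the FANCJ knockout. There 11 of 32 members were called lower (34.4%) and 3 higher (9.38%), against 18.5% and 18.3% of all tested genes. The groups did not overlap in 14 members that were lower and in 5 that were higher, where 23.9% and 24.8% of all tested genes were so separated. The FANCJ knockout libraries are those compared with wild type above, so the results of these comparisons are not independent. The lower members with their log2 fold changes were Perp (-1.47), Plk2 (-1.3), Polk (-1.02), Mdm2 (-0.94), Tnfrsf10b (-0.63), Cdkn1a (-0.63), Apaf1 (-0.59), Ccng1 (-0.57), Eda2r (-0.42), Phlda3 (-0.42) and Gtse1 (-0.34), with adjusted p between 1.66e-10 and 0.0158. Phlda3 encodes an inhibitor of the kinase Akt, and Gtse1 a microtubule protein that restrains p53 in G2. All but Phlda3 and Gtse1 were called in all 12 alternatives. Phlda3 lost its call at equal depth and without FANCJ knockout library 2 or double knockout library 2 (adjusted p of up to 0.201), and Gtse1 at equal depth and without double knockout library 2 (adjusted p of up to 0.103). The 3 higher members were Sesn1 (1.35, adjusted p = 3.25e-05), Ei24 (0.80, adjusted p = 4.18e-06) and Trp53inp1 (0.30, adjusted p = 0.0471), and Trp53inp1 lost its call in 9 of the 12 alternatives, among them those without FANCJ knockout library 1 or any double knockout library (adjusted p of up to 0.403). This measurement shares no library with the DHX36 knockout against wild type, and the Pearson correlation of the 2 sets of fold changes over the 32 genes was 0.71, with the same sign in 21. Here too genes are not independent replicates, no test was made, and no value over all tested genes is given beside it. In the double knockout against the FANCJ knockout 14 of 16 embryonic stem cell markers were called higher and 1 lower, with a summed level of 8274 to 8462 CPM in the double knockout, against 5898 to 6224 CPM in the FANCJ knockout. Of 10 tested fibroblast markers 7 were called lower and 1 higher, and of 15 primitive endoderm markers 6 were lower and 2 higher. The part of these markers in the comparison was not tested.

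Other genes of the pathway were described by lists, whose counts can be read against the shares of all tested genes called higher and lower against wild type. These shares were 12.8% higher and 11.6% lower for the DHX36 knockout, 1.45% higher and 0.619% lower for the FANCJ knockout, and 16.6% higher and 17.3% lower for the double knockout. Of 29 tested further p53 targets, 2 were called higher and 0 lower in the FANCJ knockout, among them Thbs1 (log2 fold change 0.38, adjusted p = 0.0341), with a list median of 0.18. DESeq2 also called 2 higher and 0 lower, and 7 were higher and 1 lower at an unadjusted p under 0.05. In the DHX36 knockout 6 of the 29 were called higher (20.7%) and 9 lower (31%), led by Gadd45a, which encodes a growth arrest and repair protein (1.37, adjusted p = 4.58e-11), and Igfbp3, which encodes a binding protein of insulin-like growth factors (-1.06, adjusted p = 9.45e-05). In the double knockout 9 were called higher (31%) and 8 lower (27.6%), led by the gene of the immune costimulatory ligand Cd80 (1.93, adjusted p = 0.00253) and by Thbs1 (-1.83, adjusted p = 9.49e-12), which encodes a matrix glycoprotein.

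Of 30 tested p53 family members and upstream regulators, 1 was called higher and 0 lower in the FANCJ knockout. It was Cdkn2a (log2 fold change 0.82, adjusted p = 0.0302), whose products include Arf, which restrains Mdm2. The counts are per gene and do not tell its products apart. DESeq2 likewise called 1 higher and 0 lower, and edgeR had 4 higher and 4 lower at an unadjusted p under 0.05. Cdkn2a was called lower in the DHX36 knockout (-0.76, adjusted p = 0.0133) and in the double knockout (-1.21, adjusted p = 0.000163). The largest changes of the list in the DHX36 knockout were those of Kat5 (0.95, adjusted p = 2.72e-05), which encodes an acetyltransferase that modifies p53, and Hipk2 (0.87, adjusted p = 0.00103), which encodes a kinase of p53. After Cdkn2a, those in the double knockout were Trp73 (1.09, adjusted p = 0.00404), which encodes the p53 relative p73, and Rchy1 (1.06, adjusted p = 5.83e-08), which encodes a ubiquitin ligase of p53. The checkpoint kinase gene Atr was called higher in the DHX36 knockout (0.72, adjusted p = 0.00678) and in the double knockout (0.99, adjusted p = 0.000169). In all, 6 of the 30 were higher (20%) and 2 lower (6.67%) in the DHX36 knockout, and 10 higher (33.3%) and 5 lower (16.7%) in the double knockout, where the share lower was near that of all tested genes.

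A further list held genes of G2 and mitosis that p53 represses through p21 and the DREAM complex. In the FANCJ knockout 0 of 26 were called higher or lower by edgeR or DESeq2, with 2 lower at an unadjusted p under 0.05 and a median log2 fold change of -0.10. In the DHX36 knockout 1 was higher (3.85%), the phosphatase gene Cdc25b (log2 fold change 0.60, adjusted p = 0.0199), and 3 were lower (11.5%, near the share of all tested genes), led by its relative Cdc25c (-0.70, adjusted p = 0.00679). In the double knockout 2 were higher and 2 lower (7.69% each), led by Lin9 of the DREAM complex (0.55, adjusted p = 0.0324) and the mitotic transcription factor gene Foxm1 (-0.47, adjusted p = 0.00254). Of 23 tested genes of the apoptosis machinery, 0 were called in the FANCJ knockout by edgeR or DESeq2, with 2 higher and 1 lower at an unadjusted p under 0.05. In the DHX36 knockout 4 were higher (17.4%) and 3 lower (13%), among them the BH3-only gene Bmf (log2 fold change 2.59, adjusted p = 6.38e-05) and the initiator caspase gene Casp8 (-1.44, adjusted p = 3.72e-06). In the double knockout 4 were higher and 4 lower (17.4% each, near the shares of all tested genes), with Bmf (2.86, adjusted p = 5.94e-06), the BH3-only gene Hrk (1.45, adjusted p = 0.0407) and Casp8 (-1.17, adjusted p = 1.09e-05) among them.

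Markers of the cells' identity differed between the genotypes as well. Of 16 embryonic stem cell markers, 6 were called higher and 1 lower in the DHX36 knockout, 0 in either direction in the FANCJ knockout, where 3 were lower at an unadjusted p under 0.05 and DESeq2 also called 0, and 11 higher and 1 lower in the double knockout. The largest changes among them were those of Tdgf1 in the DHX36 knockout (log2 fold change 0.73, adjusted p = 6.8e-07) and Tbx3 in the double knockout (1.31, adjusted p = 3.16e-10). Of 15 primitive endoderm markers 4 were higher and 3 lower in the DHX36 knockout, led by Sox17 (2.10, adjusted p = 0.000145), and in the double knockout the largest change was that of Srgn (3.06, adjusted p = 6.01e-09). Of 10 fibroblast markers 2 were higher and 3 lower in the DHX36 knockout, where their summed level was 471 to 486 CPM and the largest change was that of Thy1 (1.91, adjusted p = 4.86e-06), while in the double knockout it was that of Acta2 (-2.98, adjusted p = 1.61e-14). Of 5 tested neuroectoderm markers 1 was higher and 4 were lower in the DHX36 knockout, 4 were lower in the double knockout, and 0 were called in the FANCJ knockout by edgeR or DESeq2, with 0 at an unadjusted p under 0.05. Sox1 led both, at -1.14 in the DHX36 knockout (adjusted p = 0.027) and -1.31 in the double knockout (adjusted p = 0.0062). Of 5 tested mesendoderm markers 3 were higher in the DHX36 knockout, 1 was higher and 1 lower in the FANCJ knockout, and 2 were higher and 1 lower in the double knockout. The largest changes were those of Hand1 in the DHX36 knockout (1.25, adjusted p = 2.44e-06) and of T, which encodes brachyury, in the FANCJ knockout (-2.28, adjusted p = 9.08e-06) and the double knockout (-1.25, adjusted p = 3.96e-05). The part of these differences in the levels of the p53 pathway genes was not tested.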

How the data were processed

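Bulk RNA sequencing gave 12 libraries, 3 for each of 4 genotypes, named as in the labels. The deposited table held whole-number counts per gene, which the authors had not normalised. BWA is listed as a tool and GRCm38 and hg38 as builds, per the submitters' processing notes. The use of molecular identifiers and of strand in the counting is not given in the sources used here. The 92 spike-ins, with 4 to 30 counts per library, were left out. Of the gene identifiers 32235 matched GENCODE M21 on GRCm38.

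Genes were tested in R 4.3.3 with edgeR 4.0.16: trimmed-mean normalisation, the default filter by genotype, and a two-sided quasi-likelihood F test with genotype as the only term over all 12 libraries. Adjusted p follows Benjamini and Hochberg over the 12765 genes. CPM used the normalised totals. Within a genotype, counts differed by 4.09 to 12.6 times the sampling noise (chi-square per degree of freedom), so no table column was a copy of another, while repeat preparations of the same RNA could not be told from separate samples. Alternatives were DESeq2 1.42.0, its size factors, no filter, equal depth, a replicate block, the compared genotypes alone, and each library left out.

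The members and lists were chosen with earlier results of these data known. Every member called in any comparison is named, with Trp53, Mdm2 and Cdkn1a, and of each other list up to 4 called genes per comparison with wild type, those with the largest changes first, except a further p53 target that is not reported here. Promoter windows were searched for motifs with no test.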

Additional observations from a re-analysis of the deposited data

Results flagged for a closer look

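The effect of FANCJ loss differed between cells without and with DHX36, by the interaction term of edgeR's quasi-likelihood test, in 6 p53 pathway genes. The difference was -0.90 on the log2 scale for Perp (adjusted p = 0.000259), -0.78 for Plk2 (adjusted p = 0.000382), -0.63 for Tnfrsf10b (adjusted p = 0.0126), -0.49 for Cdkn1a (adjusted p = 0.0487) and -0.40 for Ccng1 (adjusted p = 0.0309). It was 0.59 for Mdm4 (adjusted p = 0.00296). Such a call was made for 6 of the 32 tested members, against 8.79% of all tested genes. Of 17 alternatives, Cdkn1a lost its call in 9, Ccng1 in 8 and Tnfrsf10b in 1, at equal depth. The interaction subtracts the FANCJ knockout's fold change over wild type, so it is not independent of that comparison. The groups held 3 libraries each, too few to look for single libraries that stand apart.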

How the results depend on the processing

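Most counts of called members stayed within 1.5 times their value under the 6 planned changes of method and with each library left out. At equal depth, 2 members were higher in the DHX36 knockout than in wild type in place of 5, 2 in the FANCJ knockout than in wild type in place of 8, and 2 in the double knockout than in the DHX36 knockout in place of 8, and 2 interactions were lower in place of 5. Equal depth leaves fewer counts in every library but the shallowest. With the compared genotypes fitted alone, 4 members were higher in the FANCJ knockout. With 1 library left out, members counted as higher numbered 3 to 4 for the DHX36 knockout, 2 to 6 for the FANCJ knockout and 4 to 6 for the double knockout against the DHX36 knockout, and interactions were 1 to 2 higher and 3 to 5 lower; fewer libraries enter these fits. The higher count of 2 came without wild-type library 2, and the lower count of 3 without DHX36 knockout library 1 or double knockout library 1.

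Of the single-gene values 791 kept their direction and their side of the threshold, 132 lost their call, 2 gained one and 3 changed sign. The 2 gains were the Mdm2 interaction without wild-type library 3 (adjusted p = 0.0427) and by DESeq2 (adjusted p = 0.0389). The 3 sign changes were all Trp53 in the DHX36 knockout against wild type, not called, without wild-type library 3 or DHX36 knockout library 2 or 3, and with 1 library left out its log2 fold change ranged between -0.0989 and 0.0187. With 1 mismatch allowed, 19 of 25 members held the p53 decamer (76.0%, against 54.2% of all genes), and with loops of up to 12 bases 10 held a G-quadruplex motif (40.0%, against 30.8%).

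The replicate numbers did not pair the samples: the correlation between same-numbered libraries was -0.056 to 0.046 over 18 pairs, and 4 of 12 libraries were closest to their own number. With the number as a replicate block, 6 members were higher in the FANCJ knockout and 4 in the DHX36 knockout, and 233 genes in all changed in the FANCJ knockout, against 264 without it. Over all genes, FANCJ knockout calls ranged from 101 at equal depth to 418 with no filter, with 159 for these genotypes fitted alone. Depth limits what can be said of members with few counts, such as Fas, Gdf15, Ddb2 and Rrm2b. Among called members, Sesn1, Plk3 and Xpc had as few as 14, 19 and 24 counts in a library.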
